A study of Mus musculus with 22 samples.

Results

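Lipocalin-2 (Lcn2) was examined beside 7 other iron-handling genes, Fth1, Ftl1, Slc11a1, Hmox1, Tfrc, Slc40a1 and Steap4, in single cells sorted from the ileum of transplanted mice. These 8 genes, of the 23091 listed in the tables, were picked by name, with no threshold on a measured value. Of 4224 barcodes, 1383 held at least 500 transcripts and were kept as cells, 1025 from mice with acute graft-versus-host disease (aGVHD) and 358 from control mice. Barcodes with at least 5 transcripts of S100a8 and S100a9 together and at most 2 of C1qa, C1qb and C1qc were taken as neutrophils (688 cells, 564 aGVHD and 124 control). Barcodes with at least 3 transcripts of the C1q genes were taken as macrophages (70 cells, 43 aGVHD and 27 control). The remaining 625 kept cells met neither rule (418 aGVHD and 207 control).

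In both groups, BALB/c recipients aged 7 to 9 weeks were lethally irradiated (2 doses, each of 5 Gy) and then infused with bone marrow of female C57BL/6 donors aged 7 to 10 weeks, 5000000 cells per mouse. The aGVHD group (12 libraries) also received 400000 donor T cells, and the control group (10 libraries) received no T cells. On day 21, leukocytes of the lamina propria were gated as CD45+H2kb+CD11b+Ly6G+, that is, donor-derived cells (H2kb) carrying neutrophil surface markers. They were sequenced by CEL-Seq2, a plate method that tags each transcript at its 3′ end with a molecular identifier, so a transcript is counted once whatever its length. The labels do not say which mouse a library came from, so the spread between libraries may be technical and the tests measure that spread only. The library titles form a dated set (8 aGVHD and 6 control libraries) and a G1 set (4 and 4), and this title set was a term in each comparison between groups.

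Cells take up iron as transferrin through the transferrin receptor (Tfrc), store it in ferritin shells built of heavy (Fth1) and light (Ftl1) chains, and release it through ferroportin (Slc40a1), the only known iron exporter. Lcn2 is a secreted protein of neutrophil granules that binds bacterial siderophores and so keeps iron from microbes; Slc11a1 (Nramp1) pumps metal ions out of the phagosome, Hmox1 frees iron from heme, and Steap4 is a metalloreductase. Ferritin, Tfrc and ferroportin are also controlled after transcription, by iron regulatory proteins that bind hairpins called iron-responsive elements in their untranslated regions (UTRs). A transcript level therefore does not give the level of these proteins.

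Those hairpins are printed here because they set Fth1, Ftl1, Slc40a1 and Tfrc apart from Lcn2, Slc11a1, Hmox1 and Steap4, in which none was found. The search took a loop CAGTGN above 5 paired bases, an unpaired C and at least 3 further pairs, on the transcript strand of GENCODE M21 transcripts (GRCm38). The capitals mark the loop.
Fth1, 5′ UTR, chr19:9982732-9982760, plus strand: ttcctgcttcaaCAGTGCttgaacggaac
Ftl1, 5′ UTR, chr7:45459779-45459807, minus strand: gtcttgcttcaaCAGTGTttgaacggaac
Slc40a1, 5′ UTR, chr1:45925465-45925493, minus strand: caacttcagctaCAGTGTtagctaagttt
Tfrc, 3′ UTR, chr16:32631219-32631247, plus strand: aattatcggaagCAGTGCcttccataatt
Tfrc, 3′ UTR, chr16:32631598-32631626, plus strand: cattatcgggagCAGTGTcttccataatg
Tfrc, 3′ UTR, chr16:32631663-32631691, plus strand: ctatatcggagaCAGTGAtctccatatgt
Tfrc, 3′ UTR, chr16:32631710-32631738, plus strand: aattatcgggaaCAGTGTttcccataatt
The same pattern was present in the 5′ UTR of 9 of 21877 genes (0.0411%) and in the 3′ UTR of 36 (0.165%). Ferritin and ferroportin carried it before the coding sequence, where binding blocks translation, and Tfrc carried it 4 times after the coding sequence, where binding protects the mRNA. A match is a description of these letters only.

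Libraries held 45607 to 360054 transcripts, with 74 to 95 kept cells in aGVHD libraries and 11 to 60 in control libraries. Levels are given as CPM, transcripts per 1000000 transcripts of named genes, summed over the cells of a library. Named genes took 21.2% to 67.8% of the transcripts of kept cells. Marker genes followed the class names. Of markers that the rules did not use, 8 of 8 macrophage markers were higher in macrophages (Apoe 245 CPM in neutrophils, against 5112 CPM in macrophages). Among them Cd163 was a near tie, at 2.28 CPM in neutrophils and 2.38 CPM in macrophages (3 and 1 transcripts). Of the neutrophil markers, 9 of 12 were higher in neutrophils (Csf3r 1990 CPM, against 487 in macrophages). The exceptions were the granule genes Ngp, Camp and Ltf, which were as high when pooled over the macrophage class. They had 395, 118 and 148 transcripts in aGVHD macrophages and 0 in control macrophages. A single barcode of aGVHD replicate 7 held 644 of them. S100a8 stood at 13592 CPM in neutrophils and at 3157 CPM in macrophages, so the macrophage class was not free of neutrophil transcripts. The same barcode held 1666 S100a8 and S100a9 transcripts, where all aGVHD macrophages held 1263 of S100a8 and 1511 of S100a9. Epithelial transcripts summed to between 0 and 13808 CPM over the neutrophils of an aGVHD library and to between 0 and 60045 CPM over those of a control library, with Fabp1 at 0 in both. B or plasma cell transcripts summed to between 0 and 92512 CPM (aGVHD) and 0 and 129960 CPM (control). The part of these transcripts in the results was not tested.

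Over all kept cells the ferritin chains were the most abundant members. Fth1 held 15562 transcripts (6564 CPM) and was found in 83.0% of cells, and Ftl1 held 3539 (1493 CPM) in 60.5%. Lcn2 came next by transcripts, with 2637 (1112 CPM), but was found in only 27.3% of cells, fewer than the 31.1% with Slc11a1 (901 transcripts, 380 CPM). The remaining members were sparse: Slc40a1 had 176 transcripts, Hmox1 147, Tfrc 106 and Steap4 96. None of these 4 reached the low-count filter of any model of levels, so they were compared only by the share of cells with a transcript. The concentration of Lcn2 in few libraries and cells set it apart from the ferritins: 1 library, aGVHD replicate 7, held 41.5% of its transcripts, 3 libraries held 80.8%, and 10 cells held 37.2%.

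**Figure D1:**
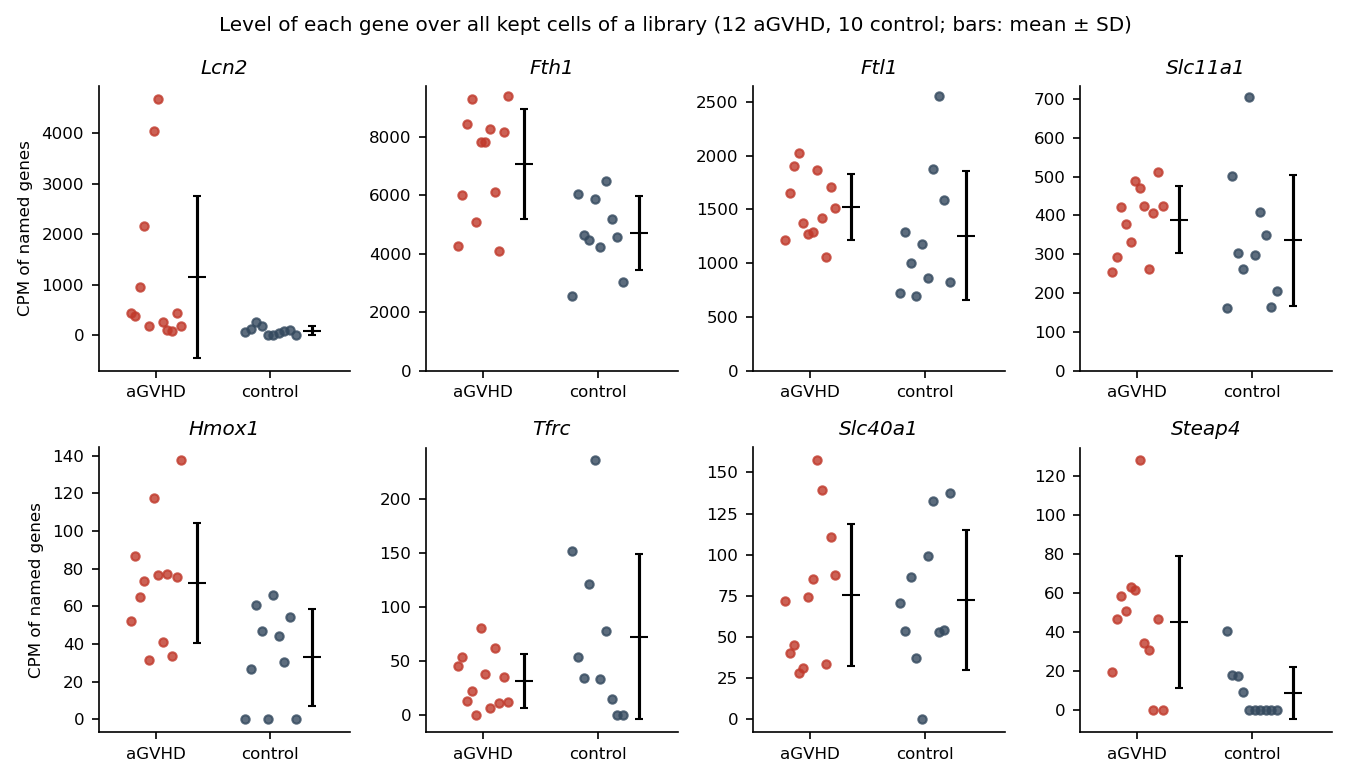
Level of each of the 8 genes in every library (CPM of named genes over all kept cells, linear y axes that differ between genes), aGVHD left of control; points are libraries and the bars beside them are mean ± SD. Lcn2 spread from 90.1 to 4673 CPM in aGVHD and from 0 to 269 CPM in control libraries, while Fth1 stayed between 4100 and 9398 CPM and between 2573 and 6477 CPM.

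Lcn2 was higher in aGVHD than in control libraries over all kept cells. Its level had a minimum of 90.1, a median of 402 and a maximum of 4673 CPM in the 12 aGVHD libraries, against 0, 68.4 and 269 CPM in the 10 control libraries. The groups overlapped, but 7 aGVHD libraries lay above the highest control library and 3 control libraries had no Lcn2 transcript at all. The mean was 1156 ± 1606 CPM in aGVHD and 86.2 ± 87.4 CPM in control libraries (SD), and the log2 difference was 2.65 ± 0.81 (SE; limma, adjusted p = 0.0406 by Benjamini-Hochberg over all 1714 genes tested). Of those genes, 8.40% were called in either direction, 4.38% higher and 4.03% lower in aGVHD.

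The Lcn2 call sat close to the threshold. The difference was 1.61 in the dated set alone (limma, adjusted p = 0.432) and 3.62 in the G1 set alone (adjusted p = 0.0466). With 1 library left out at a time it stayed between 2.32 and 2.98, but the adjusted p ran from 0.0265 to 0.0920, and the call ended in 12 of 22 cases: without any of control replicates 1, 2, 4, 5, 6, 7, 8, 9 and 10, or aGVHD replicates 3, 4 and 11.

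Fth1, the ferroxidase chain of ferritin, was the other member called. It ranged from 4100 to 9398 CPM (median 7831) in aGVHD and from 2573 to 6477 CPM (median 4612) in control libraries, with 7 aGVHD libraries above every control library and 2 control libraries below every aGVHD library. The log2 difference was 0.54 ± 0.17 (SE; limma, adjusted p = 0.0414), from means of 7068 ± 1874 and 4714 ± 1255 CPM (SD, aGVHD and control). It was 0.52 in the dated set (adjusted p = 0.139) and 0.60 in the G1 set (adjusted p = 0.540). Leaving out 1 library gave 0.47 to 0.62 with adjusted p of 0.0166 to 0.0881; the call held without aGVHD replicate 1, 5 or 10 or control replicate 2, 4 or 7, and ended without any one of the other 16 libraries.

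Ftl1 and Slc11a1 were not called over all kept cells. Ftl1 averaged 1524 ± 306 CPM in aGVHD and 1258 ± 595 CPM in control libraries (SD), a log2 difference of 0.32 ± 0.16 (SE; limma, adjusted p = 0.229). Slc11a1 averaged 389 ± 86.4 and 336 ± 168 CPM (aGVHD and control), a log2 difference of 0.23 ± 0.18 (SE; adjusted p = 0.449). The groups overlapped for both: no aGVHD library lay above the highest control library, while 5 of 10 control libraries lay below the lowest aGVHD library for Ftl1 and 3 of 10 for Slc11a1.

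The share of kept cells that met the neutrophil rule moved with these differences. It was 54.7% ± 19.9 in aGVHD and 32.8% ± 10.6 in control libraries (SD). The rule counts S100a8 and S100a9 transcripts at the depth of each cell, so this share depends on their level and on depth too. Kept cells in neither class had a median of 541 transcripts of named genes, against 1446 in neutrophils. They came from the same Ly6G+ gate, and what they are was not tested. Since sums over all kept cells cannot tell more neutrophils from more RNA per neutrophil, the levels were taken again within neutrophils, in the 12 aGVHD and 7 control libraries with at least 10 of them.

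**Figure D2:**
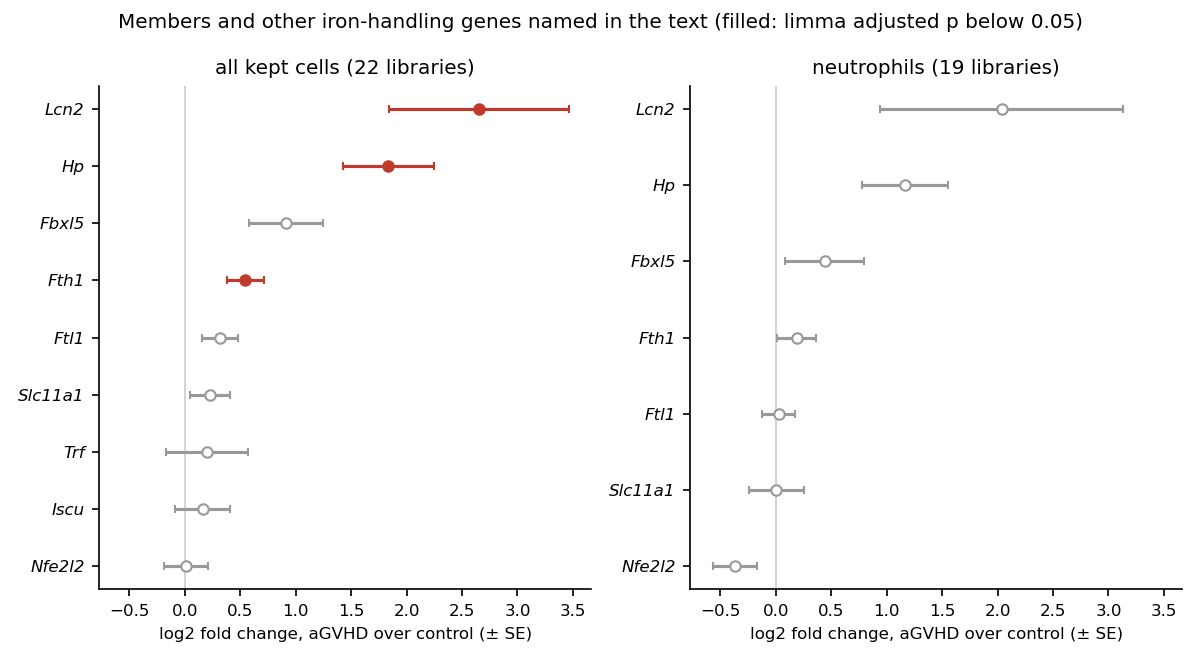
Log2 fold change of aGVHD over control (x axis) for the members that passed the low-count filter and the other iron-handling genes named with a value, over all kept cells of 22 libraries (left) and over neutrophils of 19 libraries (right); points are limma estimates, bars ± SE, filled points adjusted p under 0.05. Lcn2 had the widest bars, at 2.65 ± 0.81 over all kept cells and 2.04 ± 1.10 within neutrophils, and Fth1 was at 0.54 ± 0.17 and 0.19 ± 0.18.

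Within neutrophils no gene passed the threshold. Lcn2 had a minimum of 216, a median of 545 and a maximum of 5184 CPM in aGVHD libraries, against 0, 224 and 513 CPM in control libraries. The groups overlapped at the low end: 6 of 12 aGVHD libraries exceeded every control library, and 3 control libraries fell below every aGVHD library. The log2 difference was 2.04 ± 1.10 (SE; limma, adjusted p = 0.432), and 0 of 875 genes (0%) were called, with 121 at an unadjusted p under 0.05. Fth1 averaged 7857 ± 2064 and 5887 ± 1127 CPM (SD, aGVHD and control), with 9 of 12 aGVHD libraries above every control library. Its log2 difference was 0.19 ± 0.18 (SE; adjusted p = 0.655); it stayed above 0 and uncalled under all alternatives run, at 0.21 to 0.32 with 1 library left out and at 0.11 to 0.71 under the others. Ftl1 (1653 ± 293 and 1472 ± 639 CPM) and Slc11a1 (445 ± 119 and 429 ± 232 CPM) had differences of 0.03 and 0.00. The median over all genes was -0.08 here and 0.13 when libraries were scaled by their total instead of a trimmed mean, so values of this size have no direction.

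The share of neutrophils with a Lcn2 transcript followed the level. Lcn2 was found in 275 of 564 aGVHD neutrophils (48.8%, exact 95% interval 44.6% to 53.0%) and in 23 of 124 control neutrophils (18.5%, 12.1% to 26.5%). These intervals cover counting error only. Neutrophils had a median of 2454 transcripts in aGVHD and 2778 in control, so each cell was next thinned to 500 transcripts, with the share expected over all thinning draws. The thinned share was 4.34%, 12.9% and 46.2% (minimum, median, maximum) in aGVHD libraries, against 0%, 8.19% and 10.8% in control libraries. It exceeded the control mean in 11 of 12 aGVHD libraries and the highest control library in 8, a difference of 12.7 points (exact permutation test within title sets, two-sided, p = 0.0391; adjusted p = 0.565 over 3553 genes, of which 0% were called and 303 had an unadjusted p under 0.05). The difference was 9.60 points in the dated set and 19.4 points in the G1 set. Over all kept cells it was 12.2 points (14.7% aGVHD, 2.48% control; permutation test, adjusted p = 0.237 over 3307 genes, none called, 462 at an unadjusted p under 0.05).

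**Figure D3:**
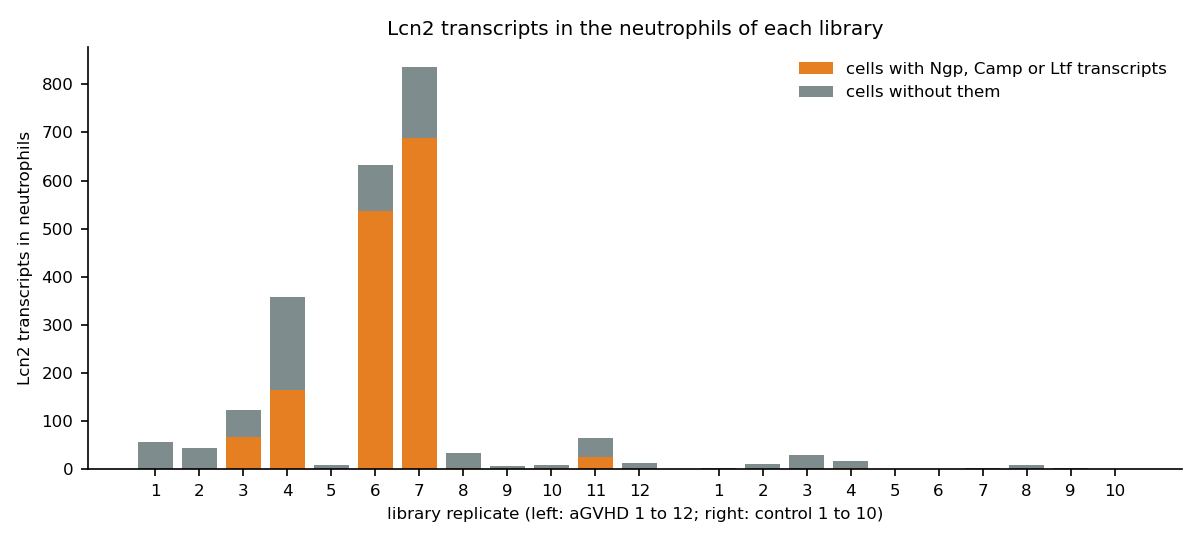
Lcn2 in the neutrophils of each library, aGVHD left of control: number of Lcn2 transcripts, divided into those in cells with and without a transcript of Ngp, Camp or Ltf. aGVHD replicates 7, 6 and 4 held 836, 633 and 357 transcripts, and the highest control library held 30.

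Most Lcn2 transcripts came from a few neutrophils. Among the 275 positive aGVHD cells, 98 (35.6%) had a single Lcn2 transcript and the median was 2, as it was in the 23 positive control cells. At the other end, 51 aGVHD neutrophils with at least 10 transcripts held 73.0% of all aGVHD Lcn2, and the highest cell had 196; in control, 2 cells had at least 10 and the highest had 12. By library, aGVHD replicates 7, 6 and 4 together held 1826 of 2181 aGVHD transcripts (83.7%).

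In the libraries richest in Lcn2, many of these transcripts lay in neutrophils that also carried Ngp, Camp or Ltf, genes of the specific granules made as neutrophils mature in the marrow. Pooled over aGVHD, 96 such cells of 564 held 1489 of the 2181 Lcn2 transcripts (68.3%) at 6096 CPM, against 692 transcripts and 861 CPM in the other 468 cells. Lcn2 was found in 77 of the 96 and in 198 of the 468. These counts were not thinned, and the 96 cells were deeper, with a median of 3095.5 transcripts against 2377.5. The pooled share was set by aGVHD replicates 6 and 7, with 537 and 689 of the 1489: without them it was 263 of 712 transcripts (36.9%). Such cells held more Lcn2 than the other neutrophils in 3 of 12 aGVHD libraries (replicates 3, 6 and 7), and at most 2 Lcn2 transcripts in 7. In control, 8 such cells held 4 Lcn2 transcripts and the other 116 held 67, at 287 CPM. Fth1 did not share this pattern: it stood at 8328 CPM in the 96 cells and at 8121 CPM in the 468. Among neutrophils without granule transcripts, the log2 difference in Lcn2 between aGVHD and control was 1.37 ± 0.72 (SE; limma, adjusted p = 0.715; 0 of 968 genes called in 18 libraries, 64 at an unadjusted p under 0.05). The pooled values there, 861 CPM in aGVHD and 287 CPM in control, rest on few libraries too: aGVHD replicates 4, 6 and 7 held 435 of the 692 transcripts.

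Barcodes that received no cells, as read from their totals and not from a label, were taken as the background. The source of their transcripts was not tested. Over the 96 such barcodes of each library, among which only 2 kept cells fell in the whole series, Lcn2 averaged 422 ± 564 CPM in aGVHD and 322 ± 304 CPM in control libraries (SD, n = 12 and 10), from 32 and 19 transcripts in all. It was 1371 and 1676 CPM in aGVHD replicates 6 and 7, whose neutrophils stood at 4453 and 5184 CPM, and 0 in aGVHD replicates 9 to 12. Mean Lcn2 in control neutrophils, 215 ± 186 CPM (SD, n = 7), was no higher than the control background. Fth1 (5887 CPM, background 1342), Ftl1 (1472 CPM, background 155) and Slc11a1 (429 CPM, background 8.65) were above the background mean in control neutrophils.

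Hmox1, Tfrc, Slc40a1 and Steap4 were too sparse for levels, and none differed in thinned share at an adjusted p under 0.05. Tfrc had the smallest unadjusted p: its thinned share was 0.495% of aGVHD and 1.58% of control neutrophils, with 12 of 12 aGVHD libraries under the control mean (exact permutation test, p = 0.00477; adjusted p = 0.342). Neutrophil barcodes with at least 5 epithelial transcripts, 26 in aGVHD and 11 in control, held 17 of 30 and 27 of 33 Tfrc transcripts. These barcodes were also deeper, with medians of 9782.5 (aGVHD) and 7812 (control) transcripts. The other neutrophils had medians of 2394 and 2568. Without the barcodes rich in epithelial transcripts, the difference in Tfrc share between aGVHD and control neutrophils was -0.36 points (exact permutation test, p = 0.254). The cause was not tested.

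Hmox1 was found in a thinned share of 1.93% of all kept aGVHD cells and 0.884% of control cells (permutation test, p = 0.0228; adjusted p = 0.280), and within neutrophils the difference was -0.08 points. Slc40a1, the exporter, differed by -0.19 points between aGVHD and control neutrophils, and Steap4 by -0.71 points, or 1.05 points without control replicate 1. Steap4 averaged 64.9 ± 49.2 CPM in aGVHD neutrophils and 17.3 ± 33.1 CPM in control neutrophils (SD), with no transcript in 5 of 7 control libraries. For these 4 genes the aGVHD and control libraries overlapped on both scales.

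Among all 61 genes of an iron-handling list, sorted by role, 12 passed the low-count filter over all kept cells; 3 were higher in aGVHD, none lower and 9 not called, where 4.38% of all genes tested were called higher and 4.03% lower. Their median log2 difference was 0.27, against 0.02 over all genes tested. Haptoglobin (Hp), which binds free hemoglobin and is stored in neutrophil granules, was the call outside the 8 genes: 826 ± 531 CPM in aGVHD and 266 ± 232 CPM in control libraries (SD), a log2 difference of 1.83 ± 0.41 (SE; limma, adjusted p = 0.0108). The Hp call held without each of the 22 libraries in turn; in the dated set alone the difference was 1.33 (adjusted p = 0.154). Fbxl5, which marks iron regulatory protein 2 for degradation, averaged 366 ± 205 and 179 ± 114 CPM (aGVHD and control; log2 difference 0.91, adjusted p = 0.0838). Nfe2l2 (NRF2, an activator of ferritin and Hmox1 transcription) had a difference of 0.01, Trf (transferrin) 0.20 and Iscu (iron-sulfur cluster scaffold) 0.16, none called. Ltf (lactoferrin, an iron-binding granule protein) had 580 transcripts in aGVHD and 9 in control libraries and did not pass the filter, nor did Lrp1, a receptor for heme-hemopexin. Within neutrophils 8 of the list were tested and none was called; Hp differed by 1.17 (limma, adjusted p = 0.281).

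Neutrophils and macrophages of the same libraries were compared in the 12 libraries with at least 3 cells of each class. Lcn2 was higher in neutrophils in 11 of 12 libraries, with a minimum of 57.7, a median of 416 and a maximum of 5184 CPM, against 0, 105 and 3909 CPM in macrophages. The class ranges overlapped. The highest macrophage value came from aGVHD replicate 7, where 1 barcode with 1666 S100a8 and S100a9 transcripts and 3 C1q transcripts held 212 of the 296 Lcn2 transcripts of all aGVHD macrophages. The next highest aGVHD library stood at 396 CPM. Lcn2 did not pass the low-count filter in this comparison.

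On cells thinned to 500 transcripts, Lcn2 was found in 16.2% ± 14.1 of neutrophils and 9.37% ± 13.1 of macrophages (SD, n = 12 libraries), higher in neutrophils in 12 of 12. The difference was 6.88 points (exact sign-flip permutation test, two-sided, p = 0.000488, the smallest the design allows; adjusted p = 0.0153 over 4092 genes, of which 11.9% were called, 4.28% higher and 7.65% lower in neutrophils). The call held without each library in turn, but in only 6 of 14 other settings. It rested on the thinning: neutrophils had a median of 2482 transcripts and macrophages 7909, and without thinning the shares were 37.3% of neutrophils and 37.9% of macrophages. It also ended when cells were thinned to 1000 transcripts (8.23 points, adjusted p = 0.0679) and when macrophages needed more C1q than S100a8 and S100a9 transcripts (17.8% and 5.70% in 9 libraries, higher in neutrophils in 9 of 9; exact permutation test, adjusted p = 0.0704). It ended too with the quality filter (5.37 points in 7 libraries, adjusted p = 0.316), with at least 5 cells of each class (7.78 points in 7 libraries, adjusted p = 0.195), with at least 2 transcripts per cell (2.15 points, adjusted p = 0.188) and in both single thinning draws (7.467 and 5.196 points, adjusted p = 0.458 and 0.678).

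**Figure D4:**
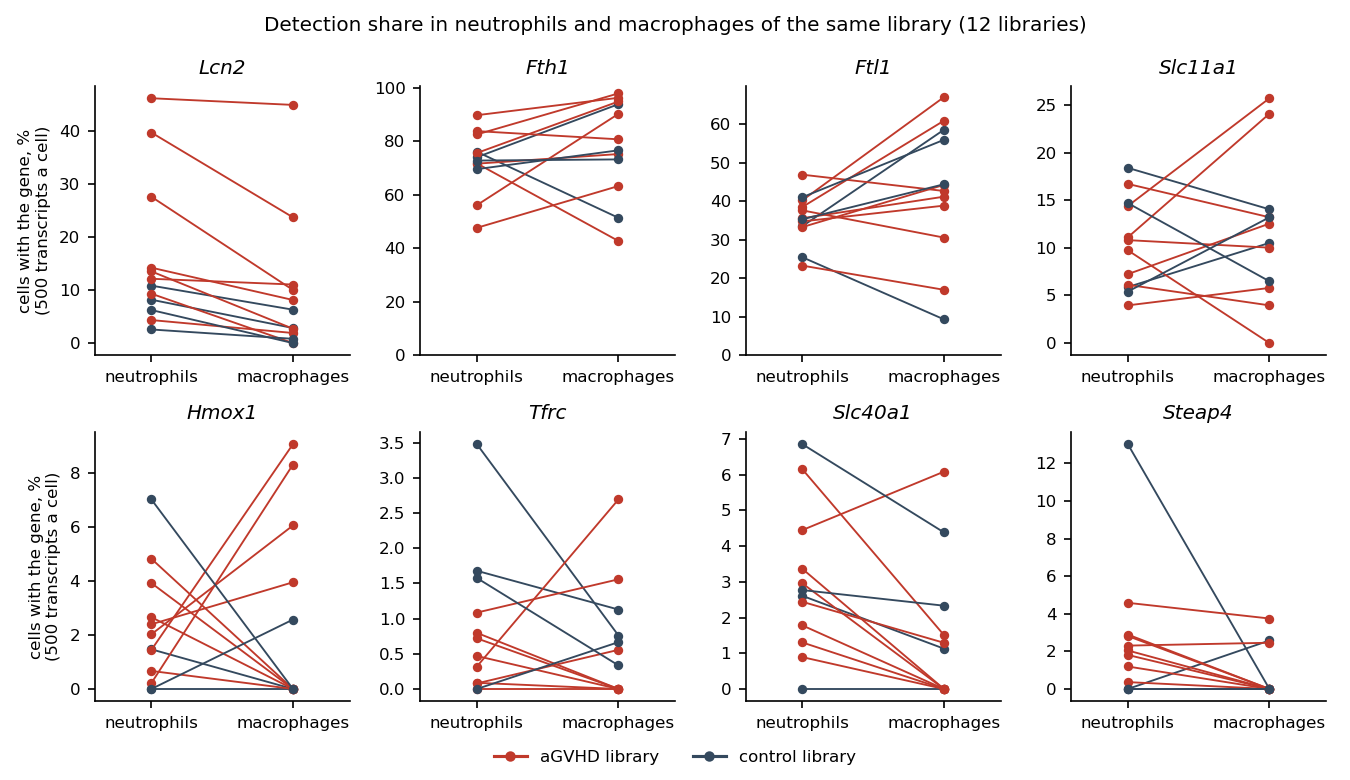
Thinned share of cells (percent, 500 transcripts per cell) with a transcript of each of the 8 genes in neutrophils and in macrophages of the same 12 libraries; points are libraries and lines join the classes of a library (red aGVHD, dark blue control). Lcn2 was higher in neutrophils in 12 of 12 libraries, while Fth1 averaged 72.5% in neutrophils and 78.0% in macrophages.

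The ferritins and Slc11a1 did not separate the classes. Fth1 was 7147 ± 1776 CPM in neutrophils and 6040 ± 2696 CPM in macrophages (SD, n = 12), a log2 difference of 0.19 ± 0.18 (SE; limma, adjusted p = 0.361). Ftl1 was 1697 ± 432 and 1730 ± 755 CPM (neutrophils and macrophages; log2 difference -0.10, adjusted p = 0.637), and Slc11a1 427 ± 170 and 347 ± 213 CPM (0.25, adjusted p = 0.434). This was in a comparison where 59.7% of 442 genes were called, 30.8% higher and 29.0% lower in neutrophils, and where 0 of 3 tested members were.

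Of the sparse members, Slc40a1 had 77 transcripts in neutrophils and 9 in macrophages, 92.5 ± 56.9 and 32.4 ± 44.2 CPM (SD, n = 12), and Steap4 had 67 and 5. The thinned share of Slc40a1 was 2.96% in neutrophils and 1.39% in macrophages, higher in neutrophils in 10 of 12 libraries (exact permutation test, p = 0.00879; adjusted p = 0.0610). Steap4 differed by 1.86 points (adjusted p = 0.180), Hmox1 was at 2.22% and 2.50%, and Tfrc at 0.858% and 0.641%. Of the wider list, 6 genes were tested by level and 2 were called, both higher in neutrophils: Hp (836 CPM, against 282 in macrophages; log2 difference 1.60 ± 0.25 SE, limma, adjusted p = 1.68e-05) and Nfe2l2 (817 CPM, against 463; 0.68 ± 0.19, adjusted p = 0.0044). The Nfe2l2 call ended without control replicate 2 (0.40, adjusted p = 0.0993) and without aGVHD replicate 4 (0.40, adjusted p = 0.107).

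Between aGVHD and control macrophages, in 8 and 4 libraries, Fth1 differed by 0.35, Ftl1 by 0.02 and Slc11a1 by -0.23 on the log2 scale, and 0 of 433 genes (0%) were called by limma (35 at an unadjusted p under 0.05). Whether the group difference itself differed between neutrophils and macrophages was tested by an interaction term. It was -0.01 ± 0.39 for Fth1, -0.07 ± 0.39 for Ftl1 and 0.21 ± 0.62 for Slc11a1 (SE), and none of 442 genes (0%) was called, with 10 at an unadjusted p under 0.05. These standard errors are wide.

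Co-detection with Lcn2 could be compared in 7 libraries, all aGVHD, that held at least 5 neutrophils of each Lcn2 status after thinning. Fth1 was found in 82.0% ± 8.19 of Lcn2-positive and 74.0% ± 11.1 of Lcn2-negative neutrophils (SD, n = 7), higher in positive cells in 7 of 7 libraries. The exact sign-flip permutation p was 0.0156, the smallest that 7 libraries allow, and the adjusted p was 0.233 over 3625 genes, of which 0% were called and 531 had an unadjusted p under 0.05. The Fth1 difference was 1.03 to 14.2 points in 13 other settings, thinning to 250 transcripts of named genes among them. By level over named genes, Fth1 was not higher in Lcn2-positive cells (log2 difference -0.13, given below). Slc11a1 was found in 14% and 10.1% of cells (Lcn2-positive and Lcn2-negative), higher in 6 of 7 libraries (exact permutation test, p = 0.0312; adjusted p = 0.274). Ftl1 was at 34.6% of positive and 36.3% of negative cells, higher in positive cells in 4 of 7 libraries, and its difference of -1.71 points became 0.635 points without aGVHD replicate 11. Slc40a1 (2.75% and 3.18%), Steap4 (2.92% and 1.95%), Hmox1 (2.08% and 2.05%) and Tfrc (0.215% and 0.603%) were found in few cells of either status. In unthinned aGVHD cells, 126 of 275 Lcn2-positive neutrophils (45.8%) and 100 of 289 Lcn2-negative ones (34.6%) had Slc11a1, but positive cells were also deeper, with a median of 2834 against 2203 transcripts.

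**Figure D5:**
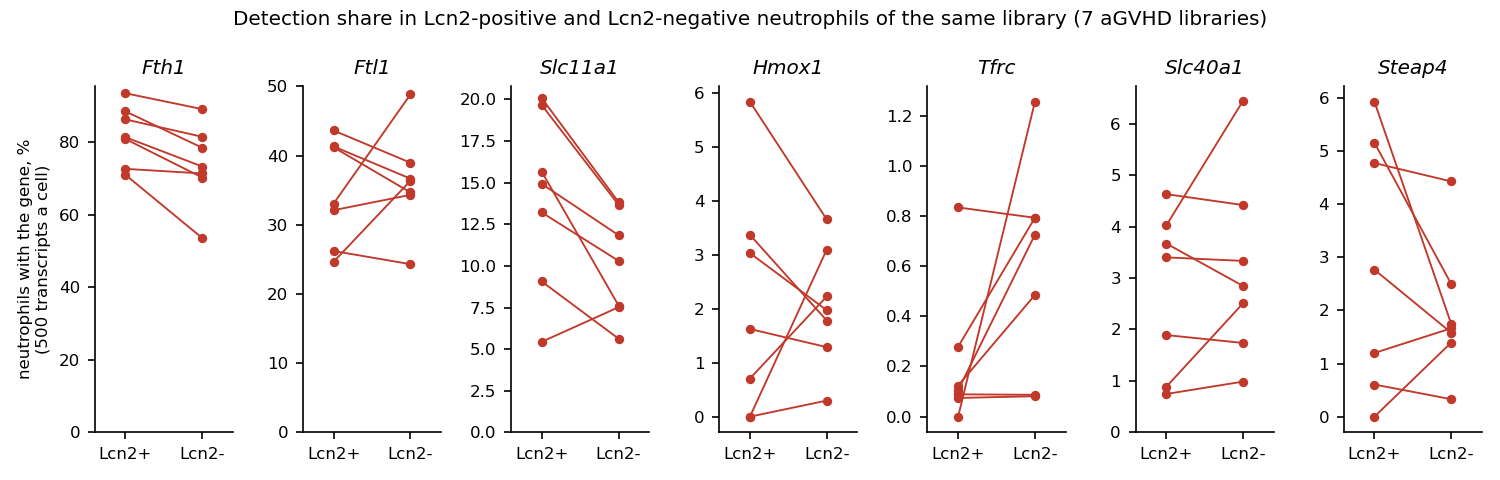
Thinned share of neutrophils (percent) with a transcript of each of the 7 other genes, in Lcn2-positive cells and Lcn2-negative cells of the same 7 aGVHD libraries; points are libraries and lines join the statuses of a library. Fth1 was higher in Lcn2-positive cells in 7 of 7 libraries and Slc11a1 in 6 of 7.

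Among the genes found in at least 5% of thinned neutrophils, those whose detection followed Lcn2 most closely were not iron genes. Of 881 genes ranked by share in Lcn2-positive minus share in Lcn2-negative neutrophils over these 7 libraries, the first 5 were Retnlg (60.4% and 22.9%, a difference of 37.5 points), S100a6 (28.2 points), Mmp8 (25.4), Actg1 (21.9) and S100a11 (21.6), each higher in positive cells in 7 of 7. Mmp8 is a granule collagenase and Retnlg a resistin-like secreted protein of neutrophils. Fth1 ranked 82, Slc11a1 218 and Ftl1 766. Hmox1, Tfrc, Slc40a1 and Steap4 were too sparse to be ranked. The rank is in points, so a gene found in most negative cells, as Fth1 was, has less room to rise. No gene was called in this comparison, so the order is a description only.

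By level, Ftl1 was lower in Lcn2-positive than in Lcn2-negative neutrophils in the draw of thinned transcripts that was tested, in 8 libraries, all aGVHD. The log2 difference was -0.85 ± 0.27 (SE, limma, adjusted p = 0.0271). Of the 110 genes tested 20.9% were called, a share that includes Lcn2, which set the statuses. Thinning was drawn 100 times, and each draw left 5 to 9 libraries with enough cells of both statuses, so draws differed in libraries too. The Ftl1 call depended on the draw. Over 100 draws Ftl1 was called in 29, with a median difference of -0.58, and was negative in 99. It also ended without aGVHD replicate 1, 2, 3, 7 or 11 (-0.65 to -0.91). Fth1 differed by -0.13 (limma, adjusted p = 0.579). It was called in 0 of the 100 draws and was negative in 71. Hp was higher in Lcn2-positive cells (0.84 ± 0.26 SE, limma, adjusted p = 0.0216), and that call ended without aGVHD replicate 4 (0.72, adjusted p = 0.0688) or 7 (0.89, adjusted p = 0.0525). The Hp call came from the same single draw, and Hp was not followed over the 100 draws. From 5 to 41 genes were called per draw.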

How the data were processed

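The members and gene lists were chosen with earlier results of these data known. Tools named in the submitters' processing notes are bcl2fastq (2.17.1.14) and BWA (0.6.2-r126). The genome build of the tables was not given in the sources used here. The deposited tables hold, for every gene and barcode, the authors' estimated transcript count, each the number expected from a whole number of 4096 identifiers, not normalised for depth. They were rounded here. Since the column check could not read them as counts, no count model was run.

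Transcripts were summed per library, and log2 CPM (library size: named genes times a trimmed-mean factor) were tested with limma 3.58.1 and voom precision weights (R 4.3.3). Genes needed 10 transcripts at the median library size in as many libraries as the smaller group, and 15 in total. The library was a block in comparisons of classes and of Lcn2 statuses. P-values were Benjamini-Hochberg adjusted over all genes tested, with a threshold of 0.05, and all tests were two-sided. Thinned shares were tested by permutation within title sets (exact where a group had fewer than 10 libraries, otherwise 100000 resamples) or exact sign flips (Python 3.11.15, scipy 1.17.1). All named genes with a mean share of at least 1% were tested, and the members at any share. Adjustment over the 8 genes alone had been planned and was replaced. The expected share over all thinning draws was chosen after single draws had proved noisy.

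On simulated sums, a log2 change of 1 was recovered for 43.2% of genes and a change of 2 for 100% over all kept cells (1712 genes); within neutrophils the shares were 50.0% and 100% (865 genes). The dispersion was 0.2. Lcn2 varies more than that between libraries.

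All 8 members were named, with the other iron genes called in a fit and the 2 most abundant of each role, and the 5 genes most like Lcn2 in co-detection among those found in at least 5% of neutrophils; 1 gene chosen by this rule is not reported here. Of the list of 61, 58 were in the tables. Macrophage marker Lyz2 and erythroid marker Hba-a2 had no values. Barcode numbers are well numbers reused in every library, and no 2 kept cells were identical. Doublets were not called; a quality filter (totals over 4 times the library median, or over 2% Kcnq1ot1) was an alternative. The title numbers of 6 dated pairs may or may not mark paired libraries. Their r was -0.08 to 0.17 (4 of 6 over 0.1), and 6 pairs are too few to decide. A block by title number was therefore run as an alternative only.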

Additional observations from a re-analysis of the deposited data

Results flagged for a closer look

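Some libraries stood apart from the others of their group in a gene's value. Of 71 groups of 4 to 10 libraries tested by the gap to the nearest library, 13 had such a library, most on 1 to 4 transcripts. The aGVHD groups over all kept cells and within neutrophils had 12 libraries each and were not tested this way. The cut-off gives about 1 in 20 for normally spread values. Sparse groups with zeros do not meet that, and level and share of the same libraries counted as separate groups. The 13 therefore cannot be set against that rate.

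Lcn2 in macrophages was 3909 CPM in aGVHD replicate 7 (248 transcripts in 5 cells), with the next library at 396 CPM; 1 barcode held 212 of those transcripts. Tfrc in macrophages was 110 CPM in the same library (7 transcripts), with the next at 43.0 CPM. Slc40a1 in macrophages was 147 CPM in aGVHD replicate 9 (1 transcript), with the next at 61.6 CPM, and its thinned share was 6.08% in aGVHD replicate 1 (1 transcript), with the next at 1.51%.

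Steap4 was highest in control replicate 1, at 40.5 CPM and 3.19% of thinned cells over all kept cells (4 transcripts) and at 86.6 CPM and 13.03% in its 11 neutrophils (3 transcripts); the next control libraries were at 17.9 CPM, 1.52%, 34.2 CPM and 3.97%. In control macrophages, Steap4 was found in replicate 2 alone, at 86.0 CPM and 2.58% (2 transcripts), and Hmox1 in replicate 8 alone, at 65.8 CPM and 2.57% (4 transcripts), with the other 3 libraries at 0. The thinned share of Tfrc over all kept cells was 5.32% in control replicate 5, which had 12 kept cells and 2 Tfrc transcripts, with the next at 2.20%.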

How the results depend on the processing

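Gene by gene, 752 values under other processing held 608 that kept direction and side of the threshold, 35 that lost the call, 8 that gained one, 100 that changed sign with neither value called, and 1 that reversed: the Lcn2 share in neutrophils minus macrophages, -0.57 points without thinning. Leaving out a library gave 902 values, of which 792 were kept, 37 lost, 1 gained and 72 changed sign uncalled. Over all kept cells 2 members were called. That count was 1 with a minimum of 250 transcripts, all genes in the library size, the G1 set alone, no title-set term, or the replicate block (Lcn2 2.90, adjusted p = 0.0320; Fth1 0.40, adjusted p = 0.276, by limma). It was 0 with the quality filter, the dated set alone, libraries of at least 20 cells, no replicate block on the same dated libraries, or without barcodes rich in epithelial transcripts, and 0 to 2 without a library. Between classes it was 0 by level (264 of 442 genes called). It was 4 with no low-count filter, where 7180 of 14608 genes were called. It was 1 with C1q at 0 in neutrophils (241 of 405 genes called) or at least 5 cells per class (217 of 468). It was also 1 with C1q above S100 transcripts (250 of 402). By thinned share it was 1 between classes (488 of 4092 genes called). It was 2 with a minimum of 250 (494 of 2468) or C1q of at least 5 (351 of 4295). With thinning to 250 named-gene transcripts it was also 2 (639 of 3501). It was 0 with no thinning (1213 of 9887) or thinning to 1000 (356 of 5982). It was also 0 with the quality filter, at least 5 cells, C1q above S100, or either single draw, where no gene was called. Without a library it was 1 to 2. For Lcn2 status it was 1 (23 of 110 genes called, Lcn2 itself among the 23). It was 2 with no low-count filter, where 4394 of 8970 genes were called. It was 0 with a minimum of 250 or 1000, all genes in the library size, C1q at 0, no granule transcripts or another draw. Without a library it was 0 to 1. The causes were not tested. All genes called over all kept cells numbered 144, against 23 with the replicate block, 8 on the same libraries without it, 51 in the dated set, 9 in the G1 set, 22 with the quality filter, 19 with at least 20 cells, 79 without epithelial-rich barcodes, 2291 without the low-count filter and 62 to 195 without a library. Depth limits Hmox1, Tfrc, Slc40a1 and Steap4, control libraries (11 to 60 cells) and macrophages (70 cells) most. Alternatives on epithelial-rich barcodes, C1q above S100, single draws and no block were added after seeing the data.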
